A study of Mus musculus with 7 samples.

Results

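MLT1 and MLT2 elements are solitary long terminal repeats (LTRs) and short internal pieces left in mammalian genomes by ancient endogenous retroviruses. All rows of the retrotransposon count table whose RepeatMasker element name starts with MLT1 or MLT2 were taken, whatever their reads, which gave 94292 of 3494995 loci. They carry 68 element names, 58 of MLT1 and 10 of MLT2, and 29 of these names are internal sequences (names ending in int). MLT1 holds 83718 of the loci and MLT2 10574.

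The RNA came from whole testes of mouse embryos at embryonic day 14.5 (E14.5), with 1 pair of testes in each library and a C57BL/6 background in all samples. The WT group has 3 libraries of wild-type testes and the Mutant group 4 libraries labelled Glis3 mutant. The study describes the mutants as homozygotes of the zf5 allele, a deletion in every cell of the body that removes an exon of Glis3 with parts of the flanking introns. Ribosomal RNA was depleted and no poly(A) selection was made, so that unspliced RNA was kept, and the library kit did not record the strand of the transcript.

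An LTR holds the promoter and the polyadenylation signal of a retrovirus, and copies that stay in a genome can lend these signals, or plain coding or splice-site sequence, to the genes around them. MLT1 belongs to the MaLR branch of the ERVL retroviruses, as does the younger ORR1 of rodents, and MLT2 to ERVL itself. Both stopped moving long before the mouse lineage arose, and most copies lie in introns and between genes. In fetal testes, germ cells silence young retrotransposons such as IAP, an active mouse retrovirus-like element, through piRNAs, DNA methylation and histone marks.

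Some MLT loci overlap an exon or a transcript start of a gene, and 5 of them show what the reads of an MLT locus can stand for. Only positions were compared, so whether the gene sequence derives from the element was not tested. Tdrd7, which encodes a germ granule protein, has a transcript start inside an MLT1A0 element, and 5033421B08Rik has 1 inside an MLT1H2 element. Rpa3 and AU015836 have a coding exon that overlaps an MLT element, and Lockd, a noncoding RNA gene next to Cdkn1b, has MLT1J sequence in an exon. Tdrd7 was on a list of piRNA genes, Rpa3 and AU015836 were named by rank, and the other genes were chosen after their values were seen, for the reads of their loci. The Lockd locus had 2164 reads, and an MLT1K copy in another noncoding exon had 3491. Letters in capitals are bases of the MLT element, all runs are 5′ to 3′ along the gene on GRCm38 (mm10), and the pieces are the 250 bases before the start at chr4:45965085-45965334 (plus strand, RefSeq) and chr12:8510913-8511162 (plus, RefSeq), coding exons at chr6:8256168-8256247 (minus, GENCODE) and chrX:93974850-93974909 (plus, GENCODE), and 205 bases of an exon at chr6:134951464-134951668 (plus, GENCODE).
Tdrd7 upstream, MLT1A0: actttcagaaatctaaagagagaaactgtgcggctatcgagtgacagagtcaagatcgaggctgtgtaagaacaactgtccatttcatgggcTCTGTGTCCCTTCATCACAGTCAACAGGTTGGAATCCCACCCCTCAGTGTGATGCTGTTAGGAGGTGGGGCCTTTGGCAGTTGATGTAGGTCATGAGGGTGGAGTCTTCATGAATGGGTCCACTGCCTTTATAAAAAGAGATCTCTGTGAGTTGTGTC
5033421B08Rik upstream, MLT1H2: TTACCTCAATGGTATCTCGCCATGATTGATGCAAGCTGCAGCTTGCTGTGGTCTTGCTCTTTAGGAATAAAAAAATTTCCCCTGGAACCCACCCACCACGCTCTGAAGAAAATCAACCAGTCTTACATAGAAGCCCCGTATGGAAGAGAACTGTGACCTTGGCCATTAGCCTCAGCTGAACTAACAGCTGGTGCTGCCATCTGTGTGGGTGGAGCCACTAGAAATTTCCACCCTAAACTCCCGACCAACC
Rpa3 coding exon, MLT2B5: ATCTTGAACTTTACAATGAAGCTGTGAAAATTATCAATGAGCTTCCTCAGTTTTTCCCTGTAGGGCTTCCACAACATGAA
AU015836 coding exon, MLT2F: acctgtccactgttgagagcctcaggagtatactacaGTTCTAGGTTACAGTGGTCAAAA
Lockd exon, MLT1J: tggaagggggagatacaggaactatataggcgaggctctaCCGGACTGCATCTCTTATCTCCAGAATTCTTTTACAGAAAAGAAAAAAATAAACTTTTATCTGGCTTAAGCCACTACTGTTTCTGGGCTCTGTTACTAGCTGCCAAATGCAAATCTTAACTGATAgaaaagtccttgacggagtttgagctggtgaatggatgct
The whole 80-base exon of Rpa3 shown lies in MLT2B5, against 23 of the 60 bases shown of AU015836. In the Tdrd7 run, the letters TATAAA stand 29 bases before the start, within the element.

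Reads in all LINE, SINE and LTR loci together were between 3454317 and 4670830 per library, and reads in MLT loci between 76970 and 102365. A check of the mutated gene set 1 library apart. FPKM (fragments per kilobase of transcript per 1000000 fragments) of Glis3 was 7.63 and 6.89 in WT replicates 1 and 2, and 3.86, 3.26, 2.90 and 2.66 in the mutants. The library labelled wild-type replicate 3 had 2.91, within the range of the mutants, so each test below was also run without it. It was picked by values of these data, so calls gained without it are no independent support. Summed FPKM of 7 germ cell markers, the defining Dazl, Dppa3 and Pou5f1 among them, was 1234, 880.5 and 531 in the WT libraries and between 439 and 582 in the mutants, so the library labelled wild-type replicate 3 was in the range of the mutants for this sum too. By gene, it lay in their range for Dppa3, Pou5f1, Dnd1 and Nanos3. It lay above them for Dazl (167 against 98.6 to 141), Sall4 (3.28 against 2.3 to 2.79) and Kit (6.64 against 4.31 to 5.77). In whole testes, fewer germ cells and less RNA per germ cell cannot be told apart. Markers of Sertoli cells summed to between 219.5 and 336 in WT and 287 and 352 in the mutants, and those of fetal Leydig cells to between 1596 and 2658 and between 2498 and 3073.

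Most MLT reads lay inside gene spans. Of the MLT loci, 28831 (30.6%) lay inside a gene span of the RefSeq table, 65373 outside all spans and 88 across a span's edge. The loci inside carried between 80.1% and 83.5% of the MLT reads in each library and the 65373 outside 16.2% over all libraries. Reads were found in 43424 loci (46.1%), in 70.1% of those inside spans and 35.4% of those outside. The median MLT locus was 175 bases long.

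The share of reads inside genes was no feature of MLT copies alone. ORR1 loci, of which 28.3% lay inside spans, had between 75.6% and 79.1% of their reads there. L2, CR1 and MIR loci, which are ancient non-LTR elements, had 48.2% of loci and between 89.9% and 91.6% of reads inside. IAP loci differed, with 12.3% of loci and only between 24.5% and 28.7% of reads inside spans.

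Exons held the densest MLT reads. By the annotation of GENCODE M21, with each locus given to the first feature it overlaps in the order coding exon, untranslated region (UTR), other exon, intron, the 567 loci in UTRs were 0.601% of MLT loci and took 20.9% of MLT reads (between 19.2% and 22.9% by library). The 79 loci in coding exons took 4.34% and the 1570 in exons of noncoding transcripts 5.92%. Introns held 35761 loci and 59.2% of the reads, and the 56315 intergenic loci, 59.7% of all, held 9.62%. In RPKM (reads per kilobase of locus per 1000000 reads in all LINE, SINE and LTR loci), the level was 50.5 in coding exons, 40.4 in UTRs, 3.73 in noncoding exons, 1.74 in introns and 0.183 between genes. Of the 26119 reads in coding exons, 11097 lay in the Rpa3 locus alone. The level without it was not computed, so the order of coding exons and UTRs may rest on this locus.

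**Figure D1:**
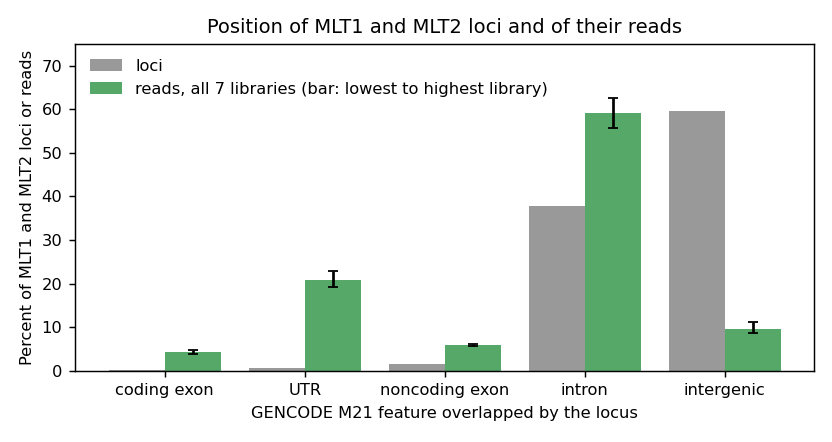
Percent of the 94292 MLT1 and MLT2 loci (grey) and of their reads (green, all 7 libraries, with a line from the lowest to the highest library) for each GENCODE M21 feature. UTRs hold 0.601% of the loci and 20.9% of the reads, and intergenic loci 59.7% and 9.62%.

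MLT copies in genes lay mainly against the direction of the gene. Of the loci inside spans, 20513 were antisense to the gene and 8030 sense, so that 71.9% of those with a single direction were antisense. The share was 72.4% in introns, 62.3% in UTRs and 64.1% in coding exons. Of the reads in loci with a single direction, antisense loci took 69.8%. In UTRs, sense loci had 304 and antisense loci 205 reads per kilobase and library, while in introns antisense loci had 9.07 and sense loci 6.92. In coding exons the values were 467 for sense and 134 for antisense loci, but the Rpa3 locus alone held 65.1% of the reads of the 23 sense loci, and without it, a choice made after seeing the data, they had 170.2. The strand of the RNA itself was not recorded, so these are directions of the element against the gene.

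A few loci carried much of the signal. The 10 loci with most reads held 9.57% of MLT reads, the top 100 held 24.7% and the top 1000 held 49.6%. By element name, MLT1B, MLT1A0, MLT1A1, MLT1D and MLT1C had the most reads and together took 41.5%. In 25 of the 68 names, a single locus held over 25% of the reads of that name. Of MLT1H-int, 53.0% of the reads lay in the Zranb2 locus alone, and without it the level of the name went from 6.74 to 3.16 RPKM.

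The most abundant MLT locus was the MLT2B5 copy at chr6:8256028-8256254 in Rpa3, the gene of the smallest subunit of the single-strand DNA binding protein RPA, whose exon is printed above. It had 1498, 1504 and 1612 reads in the WT libraries and 1466, 1508, 1596 and 1913 in the mutants. CPM here are counts per 1000000 reads in all LINE, SINE and LTR loci of the library, not of all reads sequenced, with library sizes scaled by TMM. In CPM, the groups were 354 ± 61.3 in WT (SD, n = 3) and 445 ± 55.2 in the mutants (n = 4) and overlapped, with a log2 fold change of 0.33 ± 0.13 (SE, adjusted p = 0.8). This 1 locus held 91.2% of the MLT2B5 reads inside spans.

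The next in rank lay in UTRs. The MLT1H-int copy at chr3:157547712-157547772 in Zranb2, a splicing factor gene, had 1332, 1284 and 1384 reads in WT and between 1233 and 1347 in the mutants. The MLT1A1 copy at chr19:44306282-44306423 in Scd2, a fatty acid desaturase gene, had between 1102 and 1254 in WT and between 1051 and 1253 in the mutants. The MLT1B copy at chr2:128612123-128612416 in Anapc1, a subunit of the anaphase-promoting complex, had between 666 and 791 and between 610 and 667. The scaled values of these 3 loci overlapped between the groups. In 9530068E07Rik, the MLT1H-int copy at chr11:52408190-52408295 had 984, 760 and 976 reads in WT and 921, 902, 939 and 874 in the mutants, and its scaled values did not overlap, 206 ± 18.8 against 250 ± 18.1 (log2 0.28 ± 0.13, adjusted p = 0.839).

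Of the 5 loci with most reads outside the RefSeq spans, 3 lay in UTRs of GENCODE and 2 were intergenic. A pair of MLT1E2 copies just past the end of Isoc1, counted to its UTR in GENCODE, had between 313 and 383 reads in WT and between 282 and 352 in the mutants. An MLT1K copy past the end of Zfp24, a zinc finger gene, had between 81 and 93 and between 86 and 96. The intergenic MLT1A0 copy at chr12:119260811-119260964, 22535 bases from the nearest span, had 88, 140 and 82 reads in WT and 60, 91, 63 and 125 in the mutants, groups that overlapped widely. The intergenic MLT1A copy at chr5:43619038-43619171 had 73, 76 and 88 reads in WT and 86, 105, 84 and 101 in the mutants. Scaled, the latter was 18.2 ± 3.72 against 25.8 ± 2.69 with no overlap, a log2 fold change of 0.51 ± 0.19 that did not pass the test (adjusted p = 0.768).

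All 4 sums of MLT reads, MLT1 and MLT2 inside and outside spans, had a higher mean in the mutants, by between 0.075 and 0.275 on the log2 scale, and none passed the test after adjustment. MLT1 reads inside spans were 14722, 16129 and 15572 CPM in WT and 16380.4, 16299.9, 16331 and 16149 in the mutants. The lowest mutant lay just above the highest WT library, and the log2 difference of 0.075 ± 0.0386 (SE) gave p = 0.0286 in the exact two-sided permutation test, the smallest value the test can give with 3 and 4 libraries, and 0.114 when adjusted over the 8 tests made. Scaled by library size only, it was 0.003 (exact permutation p = 0.971).

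MLT2 reads inside spans were 1591, 1811 and 1772 CPM in WT and 1931, 1917, 1926 and 2007 in the mutants. These groups did not overlap either, with a log2 difference of 0.176 ± 0.0599 and the same exact permutation p of 0.0286 (adjusted 0.114). Without the 10 loci with most reads it was 0.106 (exact permutation p = 0.0857), and scaled by library size only 0.103 (exact permutation p = 0.114).

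Outside spans the differences were larger and the libraries more spread. MLT1 reads were 2677, 3263 and 2796 CPM in WT and 3568, 3157, 3538 and 3717 in the mutants, where the second mutant library fell below the highest WT library. The log2 difference was 0.266 ± 0.1 (exact permutation p = 0.0857, adjusted 0.137), and 0.118 when only loci with at least 1 read on average were summed (exact permutation p = 0.257). MLT2 reads were 253, 282 and 280.4 in WT and 336, 277, 338 and 371 in the mutants, a log2 difference of 0.275 ± 0.102 (exact permutation p = 0.114, adjusted 0.152), and 0.074 with loci under that level left out (exact permutation p = 0.371). The ratio of MLT reads inside to those outside was 5.57, 5.06 and 5.64 in WT and 4.69, 5.31, 4.71 and 4.44 in the mutants (log2 difference -0.181 ± 0.0731, exact permutation p = 0.0857, adjusted 0.137).

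**Figure D2:**
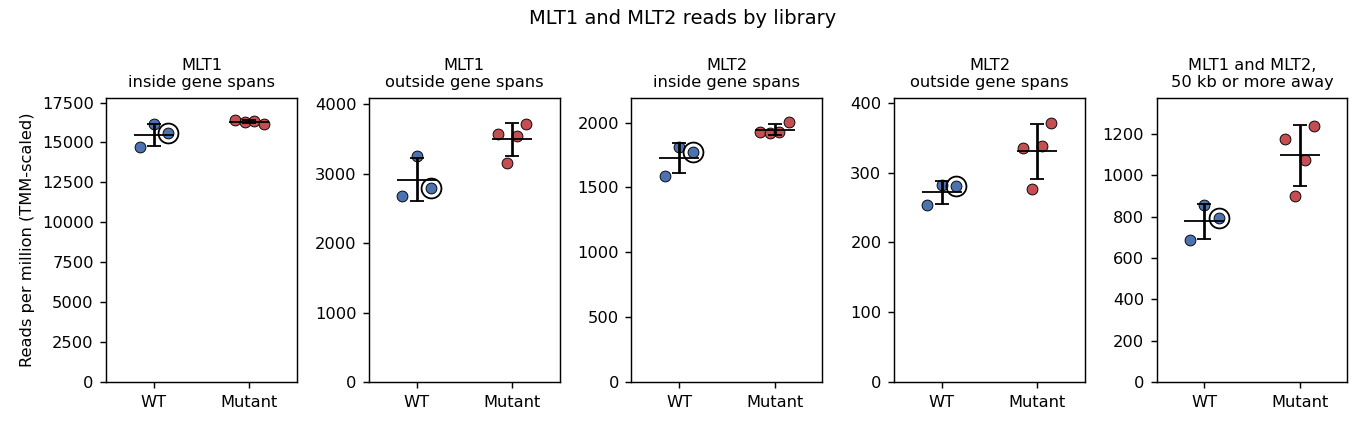
CPM (TMM-scaled) in each library, WT and Mutant, for MLT1 and MLT2 inside and outside gene spans and for MLT loci 50 kb or more from any span, with the mean and SD of each group. The circled point is the library labelled wild-type replicate 3, and the groups do not overlap inside spans or far from them.

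The difference outside was also computed by distance from genes. MLT loci under 10 kb from a span differed by 0.15 on the log2 scale and those from 10 to 50 kb by 0.26. The 34937 loci at 50 kb or more had 685, 855 and 791 CPM in WT and 1173, 898, 1071 and 1239 in the mutants, groups that did not overlap, with a log2 difference of 0.49 (0.51 without the library labelled wild-type replicate 3, computed after seeing the data). At the same distance, the difference was 0.39 for ORR1 and 0.41 for L2, CR1 and MIR, whose groups did not overlap, and 0.38 for all loci and -0.01 for IAP, whose groups overlapped. These values by distance are given without a test, and neither the distances nor the kinds of element were tested against each other.

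Set against other elements, none of the 3 ratios of MLT reads passed the test after adjustment. The ratio of MLT to L2, CR1 and MIR reads was between 0.234 and 0.239 in WT and 0.230 and 0.244 in the mutants (log2 difference 0.014 ± 0.0214, exact permutation p = 0.6). Relative to ORR1, the ratio was 0.539, 0.576 and 0.560 in WT and 0.584, 0.587, 0.574 and 0.587 in the mutants (0.062 ± 0.0289, exact permutation p = 0.0571, adjusted 0.137), and within spans alone the difference was 0.068 (exact permutation p = 0.0286, not adjusted). Relative to IAP it was between 1.78 and 2.34 in WT and 2.06 and 2.39 in the mutants (0.183 ± 0.131, exact permutation p = 0.2), and the difference was 0.301 without WT replicate 1 and 0.104 without the library labelled wild-type replicate 3.

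The reads of each element name were summed inside spans, outside and across edges, and tested with edgeR's quasi-likelihood test at an adjusted p under 0.1 over all element names of the table. Of 118 MLT sums, 3 passed, all outside spans and all higher in the mutants, against 4.27% of the 1757 sums of all names and, among sums outside spans, 9.38% in the direction higher in the mutants. MLT1A outside spans had 151, 180 and 161 CPM in WT and 201, 200, 203 and 214 in the mutants, with clear space between the groups and a log2 fold change of 0.32 ± 0.07 (adjusted p = 0.07). MLT1A1 had 199, 236 and 202 in WT and 286, 237, 285 and 291 in the mutants, the second mutant library lying beside the highest WT library (0.37 ± 0.09, adjusted p = 0.0775). MLT1H had 64.1, 71.6 and 69.2 in WT and 89.2, 75.4, 94.5 and 100.4 in the mutants (0.40 ± 0.11, adjusted p = 0.0988).

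These calls did not hold in several alternatives. None of the 3 held without the library labelled wild-type replicate 3, where the adjusted p-values were 0.188 for MLT1A, 0.21 for MLT1A1 and 0.209 for MLT1H, although the log2 fold changes were nearly as before (0.31, 0.34 and 0.41). No MLT sum passed either without WT replicate 1 or without mutant replicates 1, 3 or 4, nor with the replicate number as a block, or when only loci with at least 1 read on average were summed. Without WT replicate 2, 21 passed (17.8%, beside 14.2% of the sums of all names), and without mutant replicate 2, 12 passed (10.2%, beside 9.86%).

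Every MLT name tested outside spans had a positive log2 fold change, 47 of 47, from 0.10 to 0.61. The median was 0.28, beside 0.23 for all element names outside spans, of which 643 of 736 were positive. In 12 of the 47 (25.5%) the groups did not overlap, beside 23.0% of all names outside, and 19 (40.4%) had an unadjusted p under 0.05, beside 34.1%. Scaled by library size only, all 47 were again positive. When only loci with at least 1 read on average were summed, 34 of 42 were positive and the median was 0.08, beside 0.07 for all names outside. Inside spans the MLT median was 0.08 over 58 names, 44 of them positive (32 with library size only), beside 0.04 for all names, and in 10 the mutants lay above WT with no overlap and in 1 below, beside 7.47% and 1.99% of all names inside. The log2 fold change outside was higher than that inside for 45 of the 47 names tested in both places. Germ cell markers summed to between 531 and 1234 FPKM in WT and between 439 and 582 in the mutants, and their part in these differences was not tested.

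**Figure D3:**
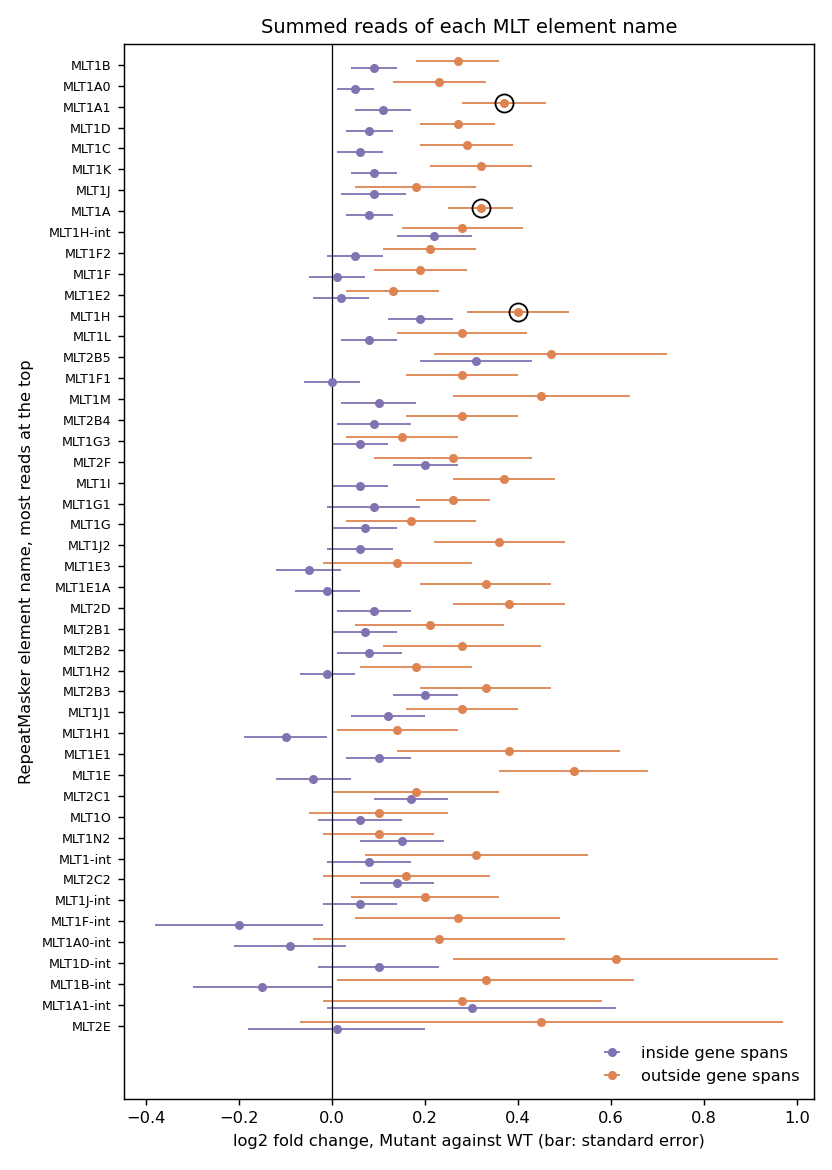
log2 fold change (Mutant against WT) of the summed reads of MLT element names inside and outside gene spans, names with most reads at the top, with standard errors. Points outside spans lie to the right of 0 for all names, and black rings mark the 3 sums with an adjusted p under 0.1, MLT1A, MLT1A1 and MLT1H outside spans.

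No MLT locus passed edgeR's test at an adjusted p under 0.1, of 11371 that had 1 read or more per library on average, against 0.00323% of the 464695 loci of all kinds (15 loci, all lower in the mutants). Among MLT loci the smallest adjusted p was 0.762, and at an unadjusted p under 0.05 there were 388 higher (3.41%) and 262 lower (2.3%) in the mutants, beside 2.97% and 2.79% of all loci. DESeq2, the tool of the study, passed 0 MLT loci as well, with 114 at an unadjusted p under 0.05 (1.0%, beside 1.16% of all loci). Without the library labelled wild-type replicate 3, the count was again 0 (smallest adjusted p 0.415). In simulated counts, whose spread was set and not fitted, the test recovered 17 of 200 loci (8.5%) changed by 2 on the log2 scale. Among loci with at least 10 reads it recovered 139 of 200 (69.5%). A count of 0 therefore does not show that no locus changed.

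Among the 1360 MLT loci with at least 10 reads, the groups did not overlap in 56 that were higher (4.12%) and 30 that were lower (2.21%) in the mutants, beside 4.45% and 2.55% of all loci of that depth. The loci below are those with the smallest p among these, given as values, since none passed the test.

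Of the 5 higher loci, 3 lay in UTRs. The MLT1B copy at chr10:13515146-13515438 in Fuca2, which encodes a secreted fucosidase, had 97, 105 and 100 reads in WT and 139, 145, 143 and 121 in the mutants. The scaled values were 23.3 ± 4.87 and 37.7 ± 4.21 CPM (log2 0.70 ± 0.18, adjusted p = 0.762). The MLT1H copy at chr2:152109994-152110319 in Srxn1, the gene of the antioxidant enzyme sulfiredoxin, had 48, 50 and 68 reads in WT and 91, 64, 71 and 94 in the mutants (0.79 ± 0.21). The third WT and second mutant libraries had close raw reads and were set apart by their library sizes.

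The MLT1A1 copy at chr2:10255680-10255866 in Itih5, a hyaluronan-binding matrix protein gene, had 114, 122 and 77 reads in WT and 145, 130, 122 and 140 in the mutants (0.62 ± 0.19). Without the library labelled wild-type replicate 3, the lowest of the 7, its log2 fold change was 0.44. The other 2 were intronic and shallow. The MLT1B copy at chr7:143690197-143690448 in Osbpl5, a lipid transfer protein gene, had 3, 5 and 9 reads in WT and between 10 and 18 in the mutants (1.53 ± 0.41). The MLT1K copy at chr7:31138351-31138495 in Gramd1a, another lipid transfer gene, had between 11 and 16 and between 19 and 25 (1.0 ± 0.3). Across the host genes of the higher loci, FPKM differed between 0.0 for Gramd1a and 0.45 for Itih5 on the log2 scale, and none passed the test.

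The 5 lower loci lay in introns, except the MLT1B copy at chr5:65643297-65643659 in Pds5a, which overlapped a noncoding exon. The MLT1F2 copy at chr1:165985748-165986101 in Pou2f1, an octamer-binding transcription factor gene, had 47, 35 and 37 reads in WT and 14, 28, 14 and 14 in the mutants (log2 -0.90 ± 0.27, adjusted p = 0.762). A single mutant library stood between the WT libraries and the other 3 mutants. The MLT1A0 copy at chr14:117653680-117654050 in Gpc6, a glypican gene, had 46, 27 and 53 reads in WT and 23, 25, 14 and 20 in the mutants (-0.75 ± 0.26, and -0.52 without the library labelled wild-type replicate 3).

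The MLT1D copy at chr15:36276290-36276443 in Rnf19a, a ubiquitin ligase gene, had 21, 13 and 12 reads in WT and between 5 and 7 in the mutants (-1.05 ± 0.37). In Pds5a, a cohesin cofactor gene, there were 32, 31 and 26 reads in WT and 17, 9, 17 and 15 in the mutants (-0.76 ± 0.28). The MLT1C-int copy at chr14:33397617-33398040 in Mapk8, which encodes the kinase JNK1, had 44, 36 and 32 and 15, 22, 16 and 27 (-0.62 ± 0.26). Of these 5 host genes, FPKM differed between -0.21 for Pou2f1 and 0.15 for Rnf19a on the log2 scale, and none passed the test.

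**Figure D4:**
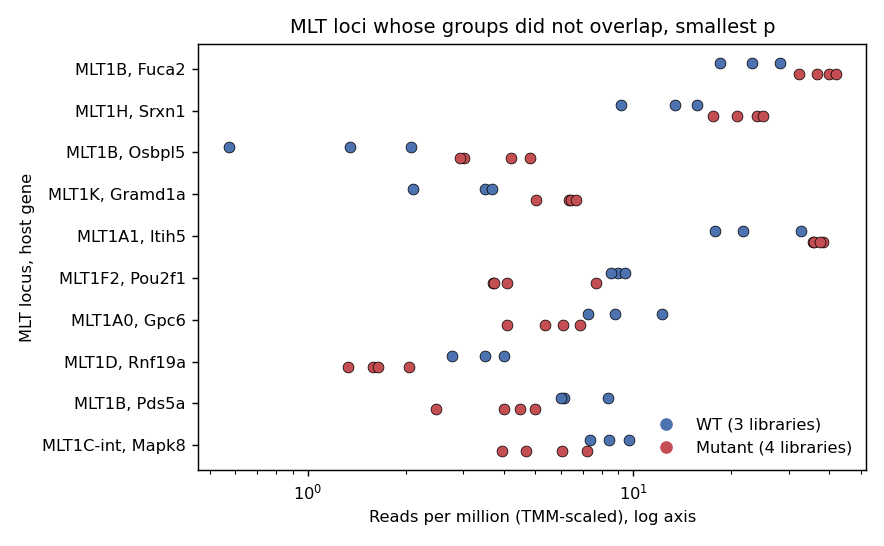
CPM (TMM-scaled, log axis) of each library for the 5 higher and 5 lower MLT loci with the smallest p among those with a mean of at least 10 reads and groups that do not overlap. The Fuca2 locus goes from 23.3 in WT to 37.7 in the mutants on average and the Pou2f1 locus from 8.98 to 4.81, and none of the 10 passed the test.

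The MLT loci in the exons printed above had overlapping groups. The MLT2F locus at chrX:93974887-93975159 in AU015836 had 211, 217 and 188 reads in WT and 262, 195, 249 and 282 in the mutants (0.52 ± 0.17, adjusted p = 0.762, overlapping groups). The MLT1J locus at chr6:134951504-134951628 in the Lockd exon had 244, 304 and 336 in WT and 221, 222, 417 and 420 in the mutants. The scaled groups overlapped there as well (0.37 ± 0.21, adjusted p = 0.851).

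The MLT loci inside genes fell in 6969 spans with a median of 2 loci, and Macrod2 held the most, 107. Summed per span, 0 of 2320 MLT sums with a mean of at least 5 reads passed edgeR's test at an adjusted p under 0.1, against 0.193% of the 16555 span sums tested, which include the other retrotransposon reads of the same spans. At an unadjusted p under 0.05 there were 92 higher (3.97%) and 31 lower (1.34%), beside 7.76% and 3.34% of all span sums. DESeq2 passed 2 (0.0862%, beside 0.689% of all span sums). In 90 (3.88%) the mutants lay above WT with no overlap and in 66 (2.84%) below, beside 6.55% and 3.03% of all span sums. Without WT replicate 2, 5 passed (0.214%, beside 0.519% of all span sums), and without the library labelled wild-type replicate 3, 3 passed (0.13%, beside 1.16%).

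Glis3 itself was among the 10 spans with the smallest p. It holds 12 MLT loci, all in introns, 10 of them with reads. Their summed reads were 61, 41 and 35 in WT and 24, 18, 20 and 16 in the mutants, which gave 10.3 ± 1.91 and 5.36 ± 0.925 CPM with no overlap and a log2 fold change of -0.94 ± 0.24 (adjusted p = 0.172). With the library labelled wild-type replicate 3 set aside, it was -1.08 and passed the test (adjusted p = 0.0717). That library was set apart by its low Glis3 FPKM, so a larger difference follows from the choice and adds no support. All 8 Glis3 loci deep enough to test had a negative log2 fold change, and none passed the test. They lie in the same gene, whose span was named by its small p, so their shared sign is no independent support. The MLT2B4 copy at chr19:28662537-28662843 had 9, 8 and 9 reads in WT and 5, 0, 3 and 3 in the mutants. The MLT1C copy at chr19:28511072-28511568 had 13, 13 and 12 and 9, 9, 8 and 2, and neither had overlapping groups after scaling. The other retrotransposon reads of the span gave -0.82 ± 0.15 (adjusted p = 0.0769), and Glis3 FPKM -0.69 ± 0.28 (limma adjusted p = 0.268).

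The other 9 spans had positive log2 fold changes and did not pass the test. Fuca2 and Srxn1 rest on the UTR loci above. FPKM of these genes was higher in the mutants too, 0.35 ± 0.09 for Fuca2, with no overlap, and 0.31 ± 0.12 for Srxn1. That of Fam155a differed by 0.54 ± 0.25, and none of the 3 passed limma's test. Fam155a, a gene of a sodium channel accessory protein, had 30, 32 and 25 MLT reads over 12 loci in WT and 58, 41, 48 and 43 in the mutants (0.98 ± 0.22, adjusted p = 0.148). Naa50, an N-terminal acetyltransferase gene, had 249, 194 and 198 in WT and 242, 244, 206 and 271 in the mutants (0.45 ± 0.11, adjusted p = 0.163), while its other retrotransposon reads gave -0.12 ± 0.10 and its FPKM -0.03 ± 0.08.

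Gna14, a G protein gene with 17 MLT loci, had 34, 20 and 33 in WT and between 35 and 52 in the mutants (0.82 ± 0.22). Hs3st3a1, a heparan sulfate sulfotransferase gene, had 7, 9 and 4 in WT and 22, 9, 16 and 16 in the mutants (1.5 ± 0.41). For Itih5, AU015836 and Gm11744 the log2 fold changes were 0.63 ± 0.17, 0.52 ± 0.15 and 0.49 ± 0.14. Adjusted p-values of these 5 were between 0.179 and 0.224. FPKM of these 5 genes was higher in the mutants as well, by between 0.16 for Hs3st3a1 and 0.45 for Itih5 on the log2 scale. Only for Gm11744 did the FPKM groups not overlap, and none passed limma's test.

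Across spans, MLT reads moved loosely with the gene. The log2 fold changes of MLT reads and of the other retrotransposon reads of the same span had a Pearson correlation of 0.28 over 2307 spans, and 0.50 over the 247 spans with a mean of at least 50 MLT reads. Against the FPKM of the gene the correlation was 0.22 over 2209 spans and 0.41 over 240. These are correlations across genes, which are not independent replicates, and both axes share the 7 libraries.

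**Figure D5:**
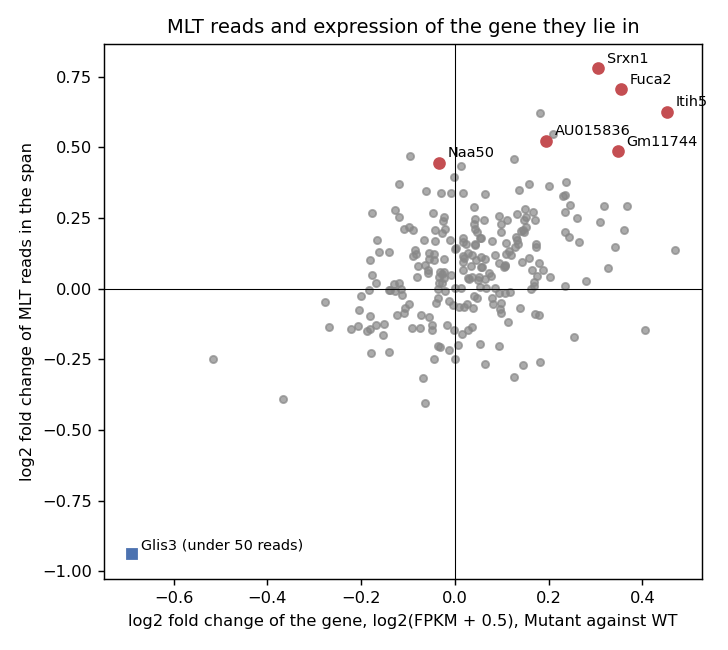
log2 fold change (Mutant against WT) of MLT reads summed per gene span against that of the gene's expression, on log2(FPKM + 0.5), with 1 point a span. The Pearson correlation is 0.22 over 2209 spans and 0.41 over the 240 spans with a mean of at least 50 MLT reads.

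Of the genes that hold MLT loci, 4676 were tested in limma on log2(FPKM + 0.5) and 0 passed an adjusted p of 0.05, against 0.00715% of the 13988 genes tested (1 gene). At an unadjusted p under 0.05 there were 339 higher (7.25%) and 369 lower (7.89%), beside 8.21% and 8.79% of all genes. No second tool was run on these values, which are not counts. Without the library labelled wild-type replicate 3, 201 MLT host genes passed (4.28%, beside 5.15% of all genes), 24 higher and 177 lower in the mutants.

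Of 32851 RefSeq promoter windows, each from 250 bases before a transcript start to 50 after it, 297 overlapped an MLT locus. In 141, of 124 genes, the start itself lay in the element, on its own strand in 95 and opposite in 46. MLT1A0 and MLT1D were the names found most often, with 17 and 16 windows. The letters TATAAA, on either strand, were in 22 of the 141 windows (15.6%), beside 13.6% of all windows.

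Of these genes, 22 were in the FPKM table, 6 were expressed enough to test and 0 passed limma's test (1 had an unadjusted p under 0.05). Med10, a Mediator subunit gene, had the highest FPKM, 94.9 ± 4.15 in WT and 109 ± 7.46 in the mutants (log2 0.19 ± 0.07, adjusted p = 0.236), but its MLT1G1 locus had 0 reads. Tdrd7 had 14.6, 15.4 and 7.55 FPKM in WT and 9.40, 9.53, 9.43 and 8.21 in the mutants, so that the library labelled wild-type replicate 3 was the lowest of all (log2 -0.37 ± 0.22, adjusted p = 0.411). Without it the value was -0.69 and passed (adjusted p = 0.00883). As the lowest library was the one removed, this pass is no independent support. The MLT1A0 locus at chr4:45965177-45965539 that holds 1 of the 3 RefSeq starts of Tdrd7 had 15 reads over all libraries, too few to tell how often that start was used. Among same-strand starts, with chromosome 18 left out of the ranking, the MLT1H2 locus of 5033421B08Rik had the most reads, 75 over the 7 libraries.

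Of 27 LTR silencing genes, which write, read or erase histone and DNA methylation or remodel chromatin, all tested, 0 passed limma's test (8 had an unadjusted p under 0.05, beside 17.0% of all genes), 25 had a negative log2 fold change, and the median was -0.09, beside 0.01 for all genes. The groups did not overlap in 6 genes that were lower in the mutants and in 1 that was higher. Among all genes that hold MLT loci these shares were 6.37% and 7.12%. Those over all genes are not given, so the counts are no result about this list. The higher gene was Uhrf1, with 42.9 ± 3.23 FPKM in WT and 50.1 ± 4.13 in the mutants. Setdb1, the histone methyltransferase recruited to retroviruses, had 49.0, 43.0 and 41.0 FPKM in WT and 38.3, 38.4, 36.5 and 36.9 in the mutants with no overlap (-0.23 ± 0.07, adjusted p = 0.194). Trim28, the cofactor that recruits it, had between 176 and 280.2 in WT and 193 and 219 in the mutants (-0.11 ± 0.14). Kdm1a, a histone demethylase gene, and Mphosph8, a subunit of the HUSH silencing complex, passed without the library labelled wild-type replicate 3, both lower in the mutants (adjusted p = 0.0463 and 0.00643). They were the only 2 of the 27 to pass there, beside 3.99% of all genes called lower.

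Of 20 piRNA pathway genes, 18 could be tested, all had a negative log2 fold change with a median of -1.09, and 0 passed (10 had an unadjusted p under 0.05, beside 17.0% of all genes). Ddx4, the germ cell RNA helicase gene, had 102, 94.7 and 53.1 FPKM in WT and between 33.6 and 42.2 in the mutants (adjusted p = 0.136). Mael, a piRNA pathway gene, had 67.1, 128 and 18.8 in WT and between 12.9 and 30.6 in the mutants, so that the third WT library lay among them. Without that library, 14 of the 18 passed, all lower, beside 3.99% of all genes called lower. It was set apart by its Glis3 level and was low in summed germ cell markers too, so these calls are no independent support. The summed germ cell markers of each library are given above, and their part was not tested.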

How the data were processed

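Whole E14.5 testes of 3 WT and 4 Mutant embryos were compared, with groups and replicate numbers from the sample titles. The authors aligned reads to mm10 with TopHat (TopHat2 2.0.12 in the submitters' notes) and deposited FPKM per RefSeq gene (Cuffquant and Cuffnorm) and raw counts of uniquely mapped reads per RepeatMasker locus (HTSeq-count, whose strand and overlap settings are not given in the sources used here). A gene span is the range the FPKM table gives for a gene. Reads shared by near-identical copies are missing from unique counts, and reads of an MLT locus in a gene can come from the gene's own transcript.

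Loci (mean of at least 1 read per library), sums by element name (at least 10) and sums by span (at least 5) were tested with edgeR 4.0.16 (quasi-likelihood, TMM, two-sided) on all loci, names or spans, at a threshold of 0.1 after Benjamini-Hochberg adjustment. Genes were tested with limma 3.58.1 on log2(FPKM + 0.5) at a mean of at least 0.5 FPKM and a threshold of 0.05. This scale understates changes of low genes. Values of 1 per library were compared with exact permutation tests. R 4.3.3, Python 3.11.15, GENCODE M21 and RefSeq promoter windows of GRCm38 were used, and scripts were tested on simulated data.

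Loci named were the 5 with most reads inside and the 5 outside spans, and the 5 higher and 5 lower with the smallest p among those with at least 10 reads and no overlap. No locus passed the threshold. Element names named were those past the threshold or with most reads, and spans the 10 with the smallest p. The members, gene lists and tests were chosen with earlier results of these data known. Marker sums of mesonephric duct, macrophage and endothelial genes were between 7.4 and 10.8, 9.58 and 11.7, and 54.5 and 64.1 FPKM in all libraries, and of blood genes between 241 and 1179. Same-numbered WT and mutant libraries did not deviate together. DESeq2 1.42.0 (the authors' tool), other scalings and filters, a replicate block and leaving out each library were run as alternatives.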

Additional observations from a re-analysis of the deposited data

Results flagged for a closer look

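In 38 sets of values of the 4 mutant libraries, the highest or lowest library was compared with the nearest of the others, as the gap over the whole range, and 2 were above Dixon's 95% critical value for 4 samples. Chance alone marks about 1 in 20 such sets. For MLT2 reads inside gene spans, mutant replicate 4 had 2007 CPM and the other mutants between 1917 and 1931 (0.844). For the MLT1F2 locus in Pou2f1, mutant replicate 2 had 7.7 CPM and the others between 3.7 and 4.11 (0.897).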

How the results depend on the processing

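The difference of MLT1 reads inside spans was 0.05 with the size factors of DESeq2, 0.003 with library size only, 0.062 without the 10 loci with most reads, 0.07 with loci of at least 1 read and 0.079 with a replicate block, and from 0.04 to 0.106 with 1 library left out. That of MLT2 inside spans was 0.103 with library size only, 0.106 without the top 10 loci, 0.16 with the block and from 0.118 to 0.212 with 1 library left out. With 1 library left out or the block, these exact tests cannot go below 0.0667, 0.1 or 0.25. MLT1 reads outside spans gave 0.194 (exact permutation p = 0.0286) with library size only. Relative to ORR1 the difference was 0.068 inside spans, and relative to L2, CR1 and MIR it turned to -0.006. MLT loci past the threshold were 1 with no filter (0.0023%, beside 0.0215% of all loci). With the quasi-dispersions of earlier edgeR versions, an alternative chosen after seeing the data, they were 2 (0.0176%, beside 0.0807%). MLT name sums past it were 1 with library size only, 0 with loci of at least 1 read, 0 with the replicate block, 13 with DESeq2 and from 0 to 21 with 1 library left out. Span sums were 2 with DESeq2 (0.0862%, beside 0.689% of all span sums) and from 0 to 5 with 1 library left out (at most 0.214%, beside 0.519%). Host genes were 3 with no filter (0.0447%, beside 0.0188% of all genes) and from 0 to 201 with 1 library left out (at most 4.28%, beside 5.15%). The causes were not tested. The MLT1A0 locus at chr12:119260811-119260964 turned from -0.06 to 0.358, 0.088 and 0.032 without WT replicate 2 and mutant replicates 1 and 3, within a range of -0.292 to 0.358 with 1 library left out. For the other named loci, direction and side of the threshold held in every alternative run. The 3 named name sums lost their call in 25 of 39 alternatives, and 8 of 129 for the named spans gained one. Same-numbered libraries correlated by 0.0424, -0.0858 and 0.0306, so the numbers were not taken as pairs, and WT replicate 1 correlated best with mutant replicate 2 (0.13). A floor of 3 reads was between 0.573 and 0.88 CPM.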

Other observations

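Reads of an MLT locus were rarely absent from a single library. Of 530 MLT loci with a mean of at least 20 reads, 1 had a library with no read (0.189%), beside 59 of 24880 loci of all kinds (0.237%). It is the MLT1A1 copy at chr9:100982041-100982173 in a UTR of Pccb, a mitochondrial carboxylase gene, with 0, 164 and 164 reads in WT and 88, 159, 167 and 169 in the mutants. An intergenic MLT1A copy at chr6:132731522-132731614 had 20 reads in WT replicate 1, 42 and 45 in mutant replicates 1 and 2, and none in the other 4 libraries, a pattern that does not follow the groups. Both were chosen after their values were seen.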
